A study of Mus musculus with 15 samples.

Results

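The effect of Stag2 loss was examined in cells in which Stag1 had been silenced on both sides of the comparison. It rests on 6 of the 15 RNA-seq libraries of the study, namely the 3 replicates labelled as Stag2 knockout with siStag1 and the 3 labelled as wild-type with siStag1, and the members were chosen by these labels alone. The study asked which functions in mouse embryonic stem cells (mESCs) belong to cohesin with STAG1, which to cohesin with STAG2, and which need either. All libraries came from v6.5 mESCs, a pluripotent line derived from a mouse blastocyst and grown here on gelatin. The knockout is a single CRISPR clone that carries a homozygous deletion within Stag2, called Stag2-/- here. Both the Stag2-/- and the wild-type cells received an siRNA pool against Stag1 (siStag1) at 50 nM, and RNA was taken after 48 h, so the siRNA itself was shared. With 1 clone, the effect of the mutation and any other feature of that clone cannot be told apart. The study calls its RNA-seq replicates of wild-type and knockout cells biological, but the labels do not say that the siStag1 libraries came from separate cultures. The p-values measure the spread between libraries of the same condition, estimated over all 15 libraries, and this spread may be technical. The nearest other comparison in the study is Stag2-/- against wild-type in the non-targeting control siRNA siGLO, with 6 further libraries of the same clone and parent.

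Cohesin is a ring formed by SMC1A, SMC3 and RAD21 that holds sister chromatids together and extrudes DNA into loops, many of which end at sites bound by CTCF. In somatic and stem cells the ring carries either STAG1 or STAG2, and a further paralog, STAG3, serves in meiosis. mESCs in culture move between a naive state, kept by factors such as ESRRB, TFCP2L1 and KLF4, a formative state that resembles the epiblast after implantation, and a small fraction of cells that resemble primitive endoderm. Expression of the genes that mark these states is therefore a common readout of perturbed stem cell identity.

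Counts on genes totalled 14982560 to 18960898 in wild-type siStag1 and 16309144 to 18077378 in Stag2-/- siStag1 libraries, where 3 counts, taken as the floor of detection, correspond to 0.158 to 0.200 CPM (counts scaled to an equal library total), a limit that covers counting error only. Replicate 1 of Stag2-/- siStag1 stood apart from its group along the second principal component, which held 17.8% of the variance over the 6 libraries, with a score of 30.1 against −9.78 and −16.0 in replicates 2 and 3. The first component held 71.8% and separated the genotypes. The pluripotency gene Pou5f1 was abundant on both sides. It had 19491, 15770.0 and 13177 normalized counts in Stag2-/- siStag1 and 19316, 19539 and 19237 in wild-type siStag1. Other markers of mESCs, namely Sox2, Nanog, Esrrb, Zfp42 and Dppa5a, were lower in Stag2-/- siStag1, as given below. Of 10 fibroblast markers, between 2 and 5 had no count in each of the 6 libraries. Their summed level was 23.3 to 25.7 CPM in Stag2-/- siStag1 and 16.6 to 21.4 CPM in wild-type siStag1, and its part in the results was not tested. Of the 4 fibroblast markers tested, the collagen gene Col3a1 rose by 2.68 (SE 0.91) and Thy1 fell by 0.55 (SE 0.20), and neither was called without replicate 1 of Stag2-/- siStag1 (adjusted p = 0.292 and 0.135). Col3a1 also lost its call without replicate 1 of wild-type siStag1 (adjusted p = 0.113), and Thy1 without replicate 3 of either group (adjusted p up to 0.195).

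The targeted genes were examined first. Stag2 had 851, 931 and 940.5 normalized counts in replicates 1, 2 and 3 of Stag2-/- siStag1 against 2772, 2737 and 2393 in wild-type siStag1. The groups did not overlap, and Stag2 fell by 1.54 in log2 units (SE 0.12, adjusted p = 2.34e-07 by edgeR's quasi-likelihood test), leaving 34.5% of the wild-type level. Counts are given per gene and not per exon, so what remains may include reads outside the deleted part. Stag1, the target of the siRNA, had 667, 781 and 629 normalized counts in Stag2-/- siStag1 and 517, 456 and 353 in wild-type siStag1. All 3 Stag2-/- values lay above all 3 wild-type values. Stag1 was thus higher on the knockout side by 0.65 in log2 units (SE 0.14, adjusted p = 0.00227). Relative to the siGLO libraries of the same genotype, 20.6% of Stag1 remained in wild-type and 34.5% in Stag2-/- cells, and the difference of the Stag2 effects on Stag1 between siStag1 and siGLO was 0.75 (SE 0.19, adjusted p = 0.254). It did not pass here but passed with DESeq2 (0.74, adjusted p = 0.0536) and with the replicate number as a block (adjusted p = 0.0253). For single genes the exact two-sided permutation test of 3 against 3 libraries gave p = 0.1 for both Stag2 and Stag1, the smallest value it can give. The siStag1 treatment was thus shared while the remaining Stag1 level was higher in Stag2-/- cells, and its part in the results was not tested. Stag3, the meiotic paralog, fell from 1663, 1362 and 1672 to 702, 699 and 764 normalized counts, by 1.12 in log2 units (SE 0.16, adjusted p = 8.81e-05).

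**Figure D1:**
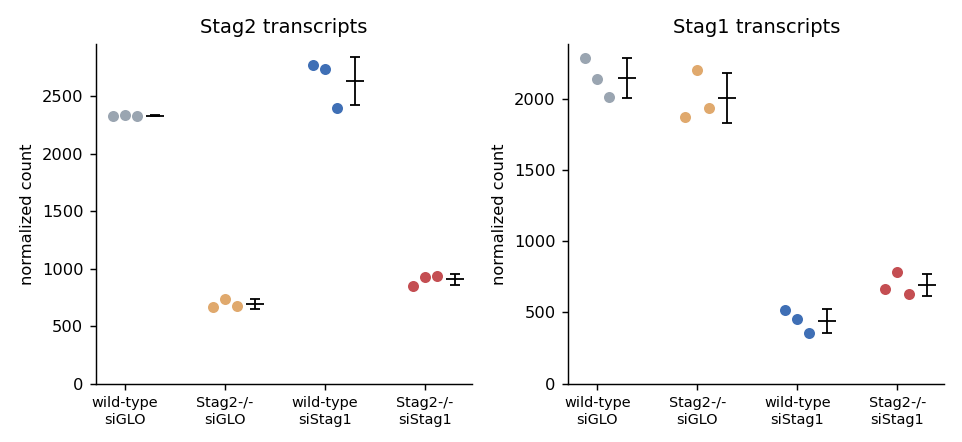
Normalized counts of Stag2 (left) and Stag1 (right) in the 12 libraries of both siRNA backgrounds, with 1 point per replicate and the mean ± SD (n = 3) beside each group. Stag2 was lower in both Stag2-/- groups, and the siStag1 libraries of Stag2-/- cells held more Stag1 than those of wild-type cells.

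Stag2-/- and wild-type cells that both received siStag1 differed at 5441 of the 14508 genes tested (37.5%) at a Benjamini-Hochberg adjusted p under 0.1 in edgeR, and genes past this threshold are those said here to rise, fall or be called. Of these, 2811 rose (19.4% of genes tested) and 2630 fell (18.1%), which is the background against which each gene list is read. The median absolute log2 fold change of the called genes was 0.62, and 911 rose and 739 fell by more than 1. Replicates of both groups did not overlap at 5077 of the called genes, and at 45.3% of all genes tested. In the siGLO background the same contrast called 28.3% of genes, with 13.9% higher and 14.4% lower. A test of the difference between both contrasts called 23 genes (0.159%). The effect was more positive in siStag1 at 3 of them (0.0207%) and more negative at 20 (0.138%). With DESeq2 this test called 102 genes, of which 24.5% had a more positive effect. With the replicate number as a block it called 138, of which 23.2% had a more positive effect.

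Among called genes whose normalized counts averaged at least 50 and whose groups did not overlap, the largest rises included Gdpd2, Pcdh18, Btbd17, Zfhx4, Zeb2, Gfra1, Cda, Psmb8 and Fgf8. Gdpd2, which encodes a glycerophosphodiester phosphodiesterase, rose from 6.99, 2.76 and 0.97 to 72.0, 160.2 and 196 normalized counts in replicates 1 to 3, by 5.34 in log2 units (SE 0.63, adjusted p = 1.46e-05). Its wild-type counts were near the floor, so the size of this rise is uncertain, and it ranged from 4.89 to 6.15 when single libraries were left out. Pcdh18, a cell adhesion protocadherin outside the gene clusters, rose by 4.34 (SE 0.66). Zeb2, a repressor of E-cadherin expression with roles in neural and mesodermal fate, rose from 51.3, 35.0 and 40.6 to 310.5, 454 and 1013, a log2 change of 3.81 (SE 0.45). Gfra1, a GDNF receptor, rose by 3.71 (SE 0.45) and Psmb8, an immunoproteasome subunit, by 3.59 (SE 0.65). In Cda, which encodes cytidine deaminase, replicate 1 of Stag2-/- siStag1 was only just above the wild-type range, with 12.8, 162 and 136 against 6.99, 5.52 and 12.6 in wild-type siStag1 (log2 change 3.60, SE 0.79). The log2 fold change was 4.22 (SE 0.56) in Btbd17, 3.59 (SE 0.89) in the ligand gene Fgf8 and 3.86 (SE 0.57) in the zinc finger homeobox gene Zfhx4. Fgf8 had 18.6, 0 and 24.2 normalized counts in wild-type siStag1, so the size of its rise is uncertain. It ranged from 2.97 to 4.29 when single libraries were left out.

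The largest falls by the same rule were in Slc13a5, Inhbb, Slco2a1, 9930013L23Rik, Nkx6-3, Pou2f3, Nlrp4f, Klb, Ceacam1 and 2210409E12Rik. Slc13a5, a plasma membrane citrate transporter, fell from 221, 176 and 215 to 5.91, 8.32 and 5.06 normalized counts (log2 fold change −4.96, SE 0.32, adjusted p = 3.52e-08). Inhbb, the activin B subunit, fell from 772, 887 and 772 to 50.3, 64.5 and 34.4 (log2 fold change −4.03, SE 0.26, adjusted p = 3.67e-08). In both genes every Stag2-/- library was far under every wild-type library. Slco2a1, a prostaglandin transporter, fell by 3.87 (SE 0.36), and Klb, the co-receptor beta-Klotho of FGF signalling, fell by 3.13 (SE 0.34). The other 6, among them the homeobox genes Nkx6-3 and Pou2f3 and the adhesion gene Ceacam1, had log2 fold changes of −3.67 in 9930013L23Rik to −3.10 in 2210409E12Rik.

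Of 16 naive pluripotency genes measured, 13 fell, 0 rose and 3 did not pass the test, and the median log2 fold change was −1.55, where the median over all genes tested was 0.00461. Their summed level was 1259.7 to 1571 CPM in Stag2-/- siStag1 and 3375 to 3469.7 CPM in wild-type siStag1. In bulk RNA, fewer cells of a type and less RNA per cell cannot be told apart. Without replicate 1 of Stag2-/- siStag1, 13 also fell and 0 rose. Tfcp2l1, a transcription factor that sustains self-renewal under LIF, had 677, 733 and 704 normalized counts in Stag2-/- siStag1 against 4844, 4602 and 4731 in wild-type siStag1, and its log2 fold change was −2.75 (SE 0.15, adjusted p = 1.43e-08). Esrrb, an orphan nuclear receptor of the naive network, had 1331, 2144 and 2112 against 9574, 8856 and 9378 and fell by 2.32 (SE 0.15). Prdm14, which represses differentiation and de novo DNA methylation, had 9.86, 38.5 and 34.4 against 227, 226 and 234 and fell by 3.06 (SE 0.28). Replicate 1 was lowest at Prdm14, yet no Stag2-/- value of these genes came near the wild-type range. Tbx3, a T-box factor, fell by 2.30 (SE 0.14), the LIF target Klf4 fell by 1.81 (SE 0.16) and the AKT coactivator Tcl1 by 1.91 (SE 0.17). Klf5, Nr0b1, Zfp42, Nr5a2, Dppa5a and Tdh fell by 0.99 to 1.57, and Fbxo15 by 0.34 (SE 0.13). The 3 members that did not pass the test were Klf2 (−0.24, SE 0.17), Dppa3 (−0.06, SE 0.18) and Gbx2 (0.35, SE 0.29), whose replicates overlapped between groups. Without replicate 1 of Stag2-/- siStag1, Klf2 passed (−0.45, adjusted p = 0.0512) and Fbxo15 did not (−0.20, adjusted p = 0.235), and Fbxo15 also lost its call without replicate 1 or 3 of wild-type siStag1 (adjusted p up to 0.162).

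Of 12 genes of general pluripotency, which naive and primed cells share, 4 fell and 2 rose (median −0.25). Without replicate 1 of Stag2-/- siStag1, 6 fell. Pou5f1, which encodes OCT4, did not pass the test at −0.26 (SE 0.13, adjusted p = 0.14), although it did when replicate 1 of Stag2-/- siStag1 was left out (−0.42, adjusted p = 0.0164) and with the replicate block (−0.28, adjusted p = 0.0218). Sox2 had 6424, 6419.9 and 6992 normalized counts against 7878, 8466 and 9179 and fell by 0.36 (SE 0.08, adjusted p = 0.0043). Nanog had 587, 2342 and 2181 in Stag2-/- siStag1 against 3537, 3373 and 3823 in wild-type siStag1, so that replicate 1 lay far under replicates 2 and 3. Its fall of 1.07 (SE 0.34, adjusted p = 0.0267) became 0.66 without that replicate (adjusted p = 0.0223). Fgf4, the FGF ligand that mESCs secrete, fell by 1.61 (SE 0.12). Lin28a, an RNA-binding protein that blocks let-7 maturation and increases on exit from the naive state, rose by 0.60 (SE 0.12), and Sall4 rose by 0.48 (SE 0.13).

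Genes of the formative and primed epiblast were higher. Of the 13 measured, 12 rose and 0 fell, with a median of 1.47. Fgf5, the classical marker of the epiblast after implantation, rose from 16.3, 11.0 and 11.6 to 87.7, 104 and 110.2 normalized counts, by 2.96 in log2 units (SE 0.37, adjusted p = 2.61e-05). Sall2 rose from 290.2, 244 and 239 to 1472, 1986 and 2055, by 2.84 (SE 0.23). Lef1, a transcriptional partner of beta-catenin, rose from 376, 312 and 358 to 3200.3, 1584 and 2010.4, by 2.70 (SE 0.27), with the highest value in replicate 1. The groups did not overlap at any of these 3 genes. Cdh2, which encodes N-cadherin, rose by 2.47 (SE 0.26), Zic2 by 2.40 (SE 0.24), Sox3 by 2.10 (SE 0.19) and Pou3f1 by 1.47 (SE 0.25). Otx2, a homeobox factor of the formative state, rose by 0.49 (SE 0.18), with replicate 1 of Stag2-/- siStag1 inside the wild-type range. It lost its call without replicate 2 of Stag2-/- siStag1 (0.32, adjusted p = 0.242) or replicate 1 or 3 of wild-type siStag1 (adjusted p = 0.127 and 0.209). Foxd3 did not pass the test, at 0.74 (SE 0.46), but did with the replicate block (0.56, adjusted p = 0.0287). Its value moved from 0.0238 without replicate 1 to 1.07 without replicate 3 of Stag2-/- siStag1. Among the 8 writers and erasers of DNA methylation, 4 rose and 2 fell (median 0.10). The de novo methyltransferase gene Dnmt3b rose from 7814, 7392 and 5956 to 21722, 17836 and 15628, by 1.38 (SE 0.15). Of the dioxygenases that oxidise methylcytosine, Tet1 fell by 0.74 (SE 0.17) and Tet2 by 1.06 (SE 0.14), while Tet3 rose by 0.99 (SE 0.13).

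**Figure D2:**
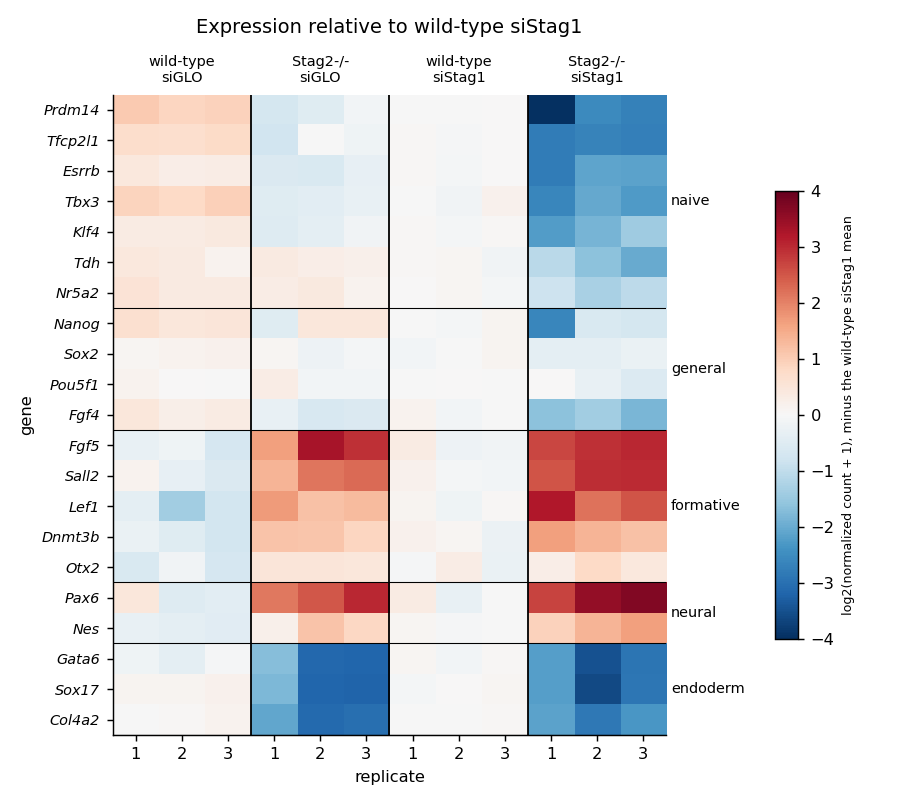
Expression of 21 named genes in the 12 libraries of both siRNA backgrounds, as log2(normalized count + 1) minus the mean of the 3 wild-type siStag1 libraries. Columns are replicates 1 to 3 of each group, and blue and red mark levels below and above that mean. The naive genes lie within about 1 log2 unit of the reference in the siGLO libraries and are blue in the Stag2-/- siStag1 libraries, whereas the endoderm genes are blue in the Stag2-/- libraries of both backgrounds.

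Primitive endoderm genes fell without exception among the 16 measured (16 of 16, median −2.08). Gata6, a transcription factor that specifies this lineage, had 121, 49.9 and 73.8 normalized counts in Stag2-/- siStag1 against 591, 523 and 581 in wild-type siStag1, and its log2 fold change was −2.78 (SE 0.35, adjusted p = 2.96e-05). Sox17 had 51.3, 18.7 and 31.3 against 225, 245 and 251 and fell by 2.82 (SE 0.34). The basement membrane collagen Col4a2 fell by 2.41 (SE 0.24) and Cubn, an endocytic receptor of visceral endoderm, fell by 2.27 (SE 0.27). The summed level of the list was 1181 to 1581 CPM in Stag2-/- siStag1 and 4451 to 4667 CPM in wild-type siStag1. Of 12 trophoblast genes, 6 fell and 0 rose (median −0.63), and their summed level was 117 to 167 CPM against 217 to 256 CPM. Esx1, a placental homeobox gene, fell by 2.08 (SE 0.31), and Tfap2c fell by 1.08 (SE 0.18). Elf5 and Tpbpa, which mark trophoblast closely, did not reach the level needed for testing. Among 12 tested genes of primitive streak and mesoderm, 2 rose and 3 fell (median −0.14). Brachyury (T) rose by 1.88 (SE 0.63) and Fgf8 by 3.59 (SE 0.89), while Eomes fell by 1.33 (SE 0.25), Cdx1 fell by 2.03 (SE 0.53) and Kdr fell by 2.04 (SE 0.49). When single libraries were left out, Fgf8 ranged from 2.97 to 4.29, Cdx1 from −2.92 to −1.70 and Kdr from −2.59 to −1.69. Without replicate 1 of Stag2-/- siStag1, 1 gene of that list rose in place of 2, since T no longer passed (1.56, adjusted p = 0.108), as was so without replicate 3 of wild-type siStag1 (adjusted p = 0.110).

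Genes of the neural ectoderm rose more often than they fell, with 8 of 13 higher and 2 lower (median 1.35). Pax6, a master regulator of eye and forebrain, rose from 68.8, 44.1 and 54.2 to 364, 633 and 719 normalized counts, by 3.37 in log2 units (SE 0.32, adjusted p = 2.21e-06). Nes, which encodes the intermediate filament nestin, rose from 978, 892 and 907 to 1772, 2398 and 2900.3, by 1.35 (SE 0.20). Replicate 1 was the lowest Stag2-/- library at both genes and still above the wild-type range. Meis2 rose by 2.23 (SE 0.48) and Zfp521 by 1.88 (SE 0.51). Olig2, a factor of motor neuron and oligodendrocyte precursors, fell by 1.41 (SE 0.15), and the adhesion gene Ncam1 fell by 0.75 (SE 0.32). The call of Ncam1 was lost without any 1 of 5 libraries, with a log2 fold change as small as −0.44 without replicate 1 of Stag2-/- siStag1 (adjusted p = 0.295). Sox1, the earliest marker of neural plate, was at 0.08 (SE 0.54) and did not pass the test, and Neurog2 and Dcx were under the level needed for testing. Of the 39 genes of the Hox clusters, 16 were tested, and 11 rose, 0 fell and 5 did not pass (median 1.48). These genes were low, and 1 of 16 averaged at least 50 normalized counts. Hoxb1 had 31.5, 18.7 and 28.3 normalized counts in Stag2-/- siStag1 against 0, 0 and 2.90 in wild-type siStag1 (adjusted p = 0.00098). Hoxb2 had 31.5, 41.6 and 68.8 against 0, 0 and 6.77 (adjusted p = 0.00203) and Hoxa3 had 21.7, 34.3 and 55.6 against 2.33, 3.68 and 8.71 (adjusted p = 0.00099). A gene can pass the filter on low counts through the group in which it is high, so the count over tested Hox genes does not stand for all 39.

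The signalling lists were mixed. Of 20 genes of FGF signalling and its ERK readouts, 8 rose and 8 fell (median 0.11). Among the ligands, Fgf5, Fgf8 and Fgf15 rose, by 2.96, 3.59 and 1.34, and Fgf4 and Fgf17 fell, by 1.61 and 1.06. Among receptors and co-receptors, Fgfr2 rose from 220.3, 165 and 219.6 to 588, 479.5 and 851 normalized counts, by 1.67 (SE 0.17), whereas Fgfr3 fell by 0.94 (SE 0.24). Feedback and target genes went both ways, with falls in Spry4 (−1.09, SE 0.20) and Etv4 (−1.29, SE 0.33) and rises in Spry2 (0.39, SE 0.14) and Dusp6 (0.40, SE 0.13). The calls of Spry2 and Dusp6 were lost without replicate 3 of wild-type siStag1 (adjusted p = 0.177 and 0.124), and that of Spry2 also without replicate 1 of wild-type (adjusted p = 0.112) or of Stag2-/- siStag1 (adjusted p = 0.119). Of 14 Nodal and activin genes, 7 rose and 2 fell (median 0.29). Lefty1, a secreted Nodal antagonist and target, rose from 3966, 2278 and 2877 to 7810.1, 10418 and 10504, by 1.66 (SE 0.20), and Gdf3 rose by 0.69 (SE 0.13), while the falls were in Inhbb and Smad2 (−0.43, SE 0.09). In the BMP list, the ligands Bmp4 and Bmp2 fell, with log2 fold changes of −2.24 (SE 0.30) and −2.56 (SE 0.42), and the target Id3 rose by 1.59 (SE 0.43), with 4 of 14 genes rising and 3 falling in all (median −0.05). Among 18 WNT genes, 2 rose and 4 fell (median 0.02). Wnt11 fell by 2.48 (SE 0.37) and the antagonist Dkk1 fell by 2.50 (SE 0.52).

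In cholesterol synthesis, 11 of 14 genes fell and 1 rose (median −0.54). Mvd, an enzyme of the mevalonate pathway, had 673, 833 and 803 normalized counts in Stag2-/- siStag1 against 1613, 1692 and 1970.4 in wild-type siStag1, and its log2 fold change was −1.19 (SE 0.14, adjusted p = 1.52e-05). The groups did not overlap, and Insig1, which restrains the pathway and is itself a target of SREBP2, fell by 1.03 (SE 0.19). Of 14 genes of glycolysis and the hypoxia response, 8 fell and 0 rose (median −0.47), among them Pfkp (−0.88, SE 0.14), Vegfa (−0.97, SE 0.25) and the glucose transporter Slc2a3 (−0.82, SE 0.28). Slc2a3 did not pass without replicate 1 of Stag2-/- siStag1 (−0.55, adjusted p = 0.116) or replicate 3 of wild-type siStag1 (−0.71, adjusted p = 0.117). In the integrated stress response, 4 of 14 fell and 1 rose (median −0.28). Asns, asparagine synthetase, fell by 0.98 (SE 0.15) and Phgdh by 0.53 (SE 0.09), whereas the cystine transporter Slc7a11 rose by 2.26 (SE 0.52). Without replicate 1 of Stag2-/- siStag1, 7 genes of that list fell. Of 17 p53 targets, 5 fell and 0 rose (median −0.19). Gdf15, a secreted stress factor, fell by 1.43 (SE 0.34), Sesn1 by 0.66 (SE 0.16) and Cdkn1a, which encodes the cell cycle inhibitor p21, by 0.49 (SE 0.18). The call of Cdkn1a was lost without replicate 2 or 3 of either group, with adjusted p between 0.112 and 0.168.

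Few genes of mitosis passed the test. Among 19 mitotic and checkpoint genes, 1 rose and 2 fell (median −0.09), with the mitotic kinase gene Plk1 at 0.28 (SE 0.07) and Bub1b at −0.31 (SE 0.07). Of 18 replication genes, 6 fell and 1 rose (median −0.11), and Orc1, a subunit of the origin recognition complex, fell by 0.46 (SE 0.09). The ring subunits Smc1a (0.05, SE 0.07), Smc3 (0.00, SE 0.09) and Rad21 (0.08, SE 0.07) did not pass the test, nor did Ctcf (0.09, SE 0.09). Of the 17 genes of the cohesin cycle and CTCF that were tested, 3 rose and 2 fell (median 0.05). Esco2, the acetyltransferase that establishes cohesion in S phase, fell by 0.53 (SE 0.12), and Pds5b, which regulates release of the ring, rose by 0.35 (SE 0.10). The meiotic subunits Smc1b and Rec8 went in opposite directions, with −0.74 (SE 0.22) and 0.62 (SE 0.22). Rec8 lost its call without replicate 2 or 3 of Stag2-/- siStag1 or replicate 1 or 2 of wild-type siStag1 (adjusted p between 0.107 and 0.159). Among 13 germline genes, 2 rose and 3 fell (median 0.00119), with Stra8, a gatekeeper of meiosis, rising by 1.15 (SE 0.29).

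Of 23 imprinted genes tested, 11 rose and 5 fell (median 0.35). H19, a maternally expressed non-coding RNA, fell from 119, 190.4 and 185 to 20.7, 35.4 and 32.4 normalized counts, by 2.48 (SE 0.29), and its neighbour Igf2 fell by 1.26 (SE 0.15). Ndn rose by 1.57 (SE 0.21), Nnat by 1.41 (SE 0.23), and Meg3, Rian and Mirg of the Dlk1 locus by 0.95, 1.04 and 1.33. Zfp57, a zinc finger protein that protects imprints and is not in that list, fell from 5856, 5827 and 5835 to 1941, 1688 and 1672, by 1.72 (SE 0.14). Among the clustered protocadherins, which share sequence so that reads may be split between copies, 23 of 58 were tested, of which 6 rose and 1 fell (median 0.53). The called share was 30.4%, against 37.5% over all genes tested. Most were low, and 4 of the 23 averaged at least 50 normalized counts. As in the Hox clusters, a low gene can pass the filter through the group in which it is high. These counts therefore do not stand for all 58. Of 19 genes of the actin cytoskeleton and of SRF and YAP, 5 rose and 3 fell (median 0.28), with Cnn1 at 0.98 (SE 0.28) and the YAP target Ankrd1 at −2.79 (SE 0.52). Ankrd1 ranged from −3.75 to −2.44 when single libraries were left out. Of 5 genes of the two-cell-like state, 0 passed the edgeR test, with log2 fold changes of 0.22 to 1.10. At an unadjusted p under 0.05 there was 1, Zscan4d. It was called as higher by DESeq2 (adjusted p = 0.0728) and by edgeR with no filter (0.0914), on the compared libraries alone (0.0416), with the replicate block (0.0124) and without replicate 1 of wild-type siStag1 (0.0487), and the tandem copies of Zscan4 can share reads.

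**Figure D3:**
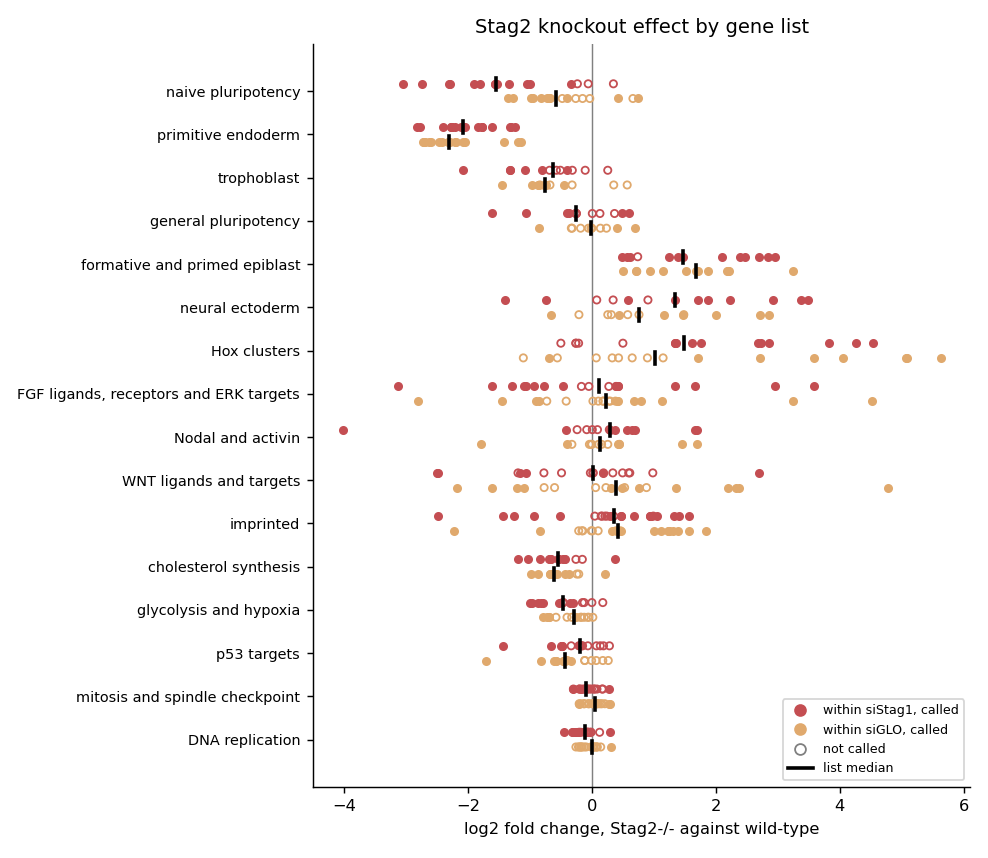
Log2 fold changes of the tested members of 16 gene lists for Stag2-/- against wild-type within siStag1 (red) and within siGLO (orange). Filled points passed an adjusted p of 0.1, open points did not, and the black bar is the list median. The naive list sits further left within siStag1 (median −1.55) than within siGLO (−0.58), and the primitive endoderm list is at −2.08 and −2.31.

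Genes at Super-enhancer Domains, DNA loops that hold a super-enhancer with its target, were taken as the study names them. The study does not say how it chose these examples. It shows their expression changes in its own RNA-seq, the siStag1 conditions included, so their direction is not independent evidence. All 5 genes inside such domains fell (median −1.81). Jam2, an adhesion molecule, fell from 1226, 1185 and 1219 to 316, 462 and 662 normalized counts, by 1.33 (SE 0.17). Tdh, threonine dehydrogenase, fell from 4715, 4898 and 4219.5 to 2169, 1464 and 1126, by 1.54 (SE 0.17), Laptm5 fell by 1.81 (SE 0.22), Prdm14 fell by 3.06 and Enpep fell by 2.99 (SE 0.47). All 4 genes named outside them rose (median 1.10). Sdc3 rose from 94.4, 102 and 115 to 285, 209 and 308, by 1.36 (SE 0.16), and Slco5a1 by 1.42 (SE 0.20). App and Xkr6 were close to the threshold, at 0.74 (SE 0.30, adjusted p = 0.0714) and 0.84 (SE 0.34, adjusted p = 0.0756), and their calls were not stable. App did not pass with DESeq2 (0.74, adjusted p = 0.103), and Xkr6 did not pass with no expression filter (0.81, adjusted p = 0.119). In edgeR, App passed when replicate 1 of Stag2-/- siStag1 was left out (1.07, adjusted p = 0.00239) and lost its call without any other library, with an adjusted p of up to 0.289. Xkr6 lost it without replicate 1 or 2 of either group, with an adjusted p of up to 0.204. App had 389, 938 and 1049 normalized counts in Stag2-/- siStag1 against 457, 441 and 519 in wild-type siStag1, so that replicate 1 lay under all 3 wild-type values.

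The Stag2 effect was set beside the same contrast in the siGLO background, which shares no library with it but shares the clone and its parent. Of the 5441 genes called within siStag1, 3155 (58.0%) were also called within siGLO, which is 76.8% of the 4110 genes called there, and 3154 of the 3155 moved in the same direction. The siGLO count that these shares rest on was 2524 without replicate 2 of wild-type siGLO and 3286 on the compared libraries alone. Genes called within siStag1 moved by a median of 0.62 in log2 units in their own direction, and of 0.43 within siGLO. Genes called within siGLO had 0.61 there and 0.58 within siStag1. Across the 14508 genes, which are not independent replicates, the log2 fold changes of both contrasts had r = 0.821. Of the 2286 genes called within siStag1 alone, 10 passed the test of the difference itself, and of the 955 called within siGLO alone, 1 did. The number of called differences moved with single libraries, from 23 to 76 without replicate 1 of Stag2-/- siStag1, to 13 without replicate 1, 2 or 3 of wild-type siStag1 or replicate 2 of wild-type siGLO, and to 15 without replicate 3 of wild-type siGLO. With the replicate number as a block it was 138, and same-numbered libraries of 1 genotype deviated together across both siRNAs (r of 0.304 to 0.767 in Stag2-/- and 0.271 to 0.599 in wild-type).

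**Figure D4:**
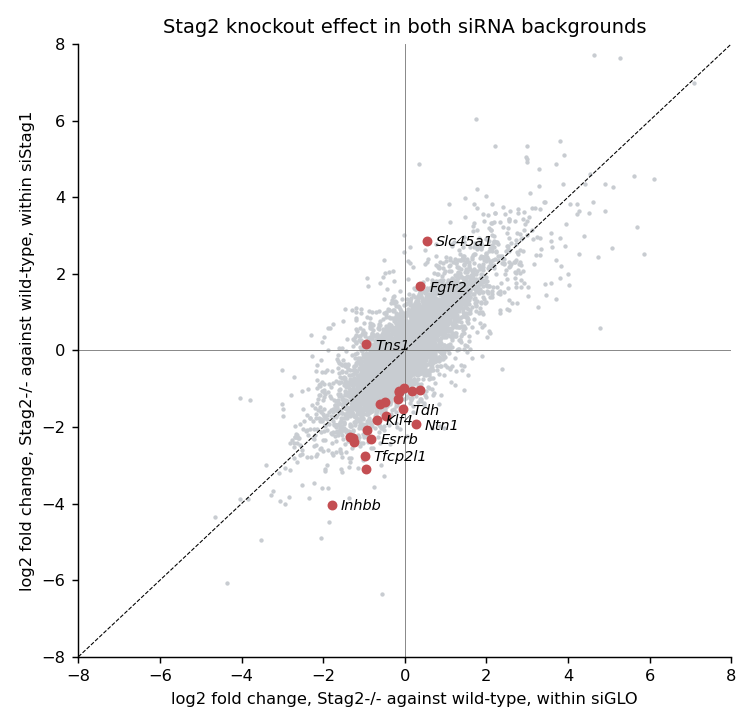
Log2 fold changes of Stag2-/- against wild-type within siGLO (horizontal axis) and within siStag1 (vertical axis), 1 point per gene tested, with the 23 genes that passed the test of the difference in red. Most red points lie below the dashed line of equal effects and left of or near 0 on the horizontal axis, and 1 gene lies outside the axes.

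At 20 of the 23 genes the Stag2 effect was more negative in siStag1 than in siGLO, and 6 of the 23 belong to the naive list, which within siGLO had 2 genes higher and 9 lower. They were Tfcp2l1, Esrrb, Tbx3, Klf4, Nr5a2 and Tdh. Of these, Klf4, Tbx3 and Nr5a2 lost the call when single libraries were left out, with adjusted p of up to 0.233, 0.169 and 0.169, and Klf4 also with library size alone (adjusted p = 0.143) and on the compared libraries alone (adjusted p = 0.161). Tfcp2l1 had 2806, 4697 and 4228 normalized counts in Stag2-/- siGLO libraries and 7612, 7546 and 8062 in their wild-type counterparts, which gave a log2 fold change of −0.99, and the difference from the siStag1 effect was −1.76 (SE 0.19, adjusted p = 0.000703). The wild-type level was already lower in siStag1 than in siGLO, and the Stag2-/- siStag1 level was the lowest of the 4 groups. Esrrb was at −0.83 within siGLO, and its effects differed by −1.49 (SE 0.20, adjusted p = 0.00398). Tdh had 5854, 5505 and 5255 in Stag2-/- siGLO libraries against 6107, 5897 and 5023 in the wild-type, where the groups overlapped, and its effects differed by −1.50 (SE 0.23, adjusted p = 0.0145). Ntn1, the guidance cue netrin-1, had 1429, 1999 and 1549 against 1444, 1530.2 and 1151 within siGLO, also overlapping, against the fall from 1039.6, 1275 and 913 to 357, 266 and 227 within siStag1 (difference −2.20, SE 0.24, adjusted p = 0.000703). Inhbb fell in both, with a difference of −2.24 (SE 0.33). The 3 genes with the opposite sign of difference were Slc45a1 (2.31), Fgfr2 (1.29) and Tns1 (1.11). All 3 lost the call when single libraries were left out, with adjusted p of up to 0.164, 0.213 and 0.262, and Fgfr2 and Tns1 lost it on the compared libraries alone (adjusted p = 0.197 and 0.161). Of the 23 genes, 11 were called for the difference under every alternative setting run, among them Tfcp2l1, Esrrb, Tdh, Ntn1 and Inhbb. Primitive endoderm and formative genes held no called difference, with medians within siGLO of −2.31 and 1.69. The summed level of the primitive endoderm list was 1301 to 1752 CPM in Stag2-/- siGLO and 4878 to 5012 CPM in wild-type siGLO, and 1499.9 to 1884 CPM in the 3 siGLO libraries labelled as Stag1 knockout. Wnt8a, a ligand of the primitive streak, had 42.3, 361 and 33.8 normalized counts in Stag2-/- siGLO libraries and 5.61, 6.10 and 3.87 in the wild-type, where replicate 2 of Stag2-/- stood far above replicates 1 and 3. The difference did not pass (adjusted p = 0.368), and the siStag1 log2 fold change of 0.59 ranged from 0.17 without replicate 1 of Stag2-/- siStag1 to 1.08 without replicate 1 of wild-type siStag1.

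Genes placed on chromosomes in the mm10 assembly showed offsets that were shared by both siRNA backgrounds. On chromosome 8, 64 of 760 genes rose and 291 fell, with a median log2 fold change of −0.22 within siStag1 and −0.21 within siGLO. The X chromosome had medians of 0.12 and 0.12, with 160 of 519 genes rising and 73 falling, and the siStag1 median was 0.0698 over genes whose normalized counts averaged at least 50. The other 18 autosomes had medians between −0.04 and 0.08 within siStag1. Of 6 Y-linked genes, 3 were tested and all 3 fell. Ddx3y, an RNA helicase, had 11.8, 7.28 and 19.2 normalized counts in Stag2-/- siStag1 against 43.1, 58.9 and 57.1 in wild-type siStag1 (log2 fold change −2.04, SE 0.39), and the summed level of the 6 genes was 0.858 to 1.92 CPM against 5.47 to 8.12 CPM. These offsets and the genotype cannot be told apart with 1 clone. Of the 16 naive genes 2 lie on chromosome 8 and 1 on X, of the 16 primitive endoderm genes 2 lie on chromosome 8, and of the 13 formative genes 1 lies on X.

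**Figure D5:**
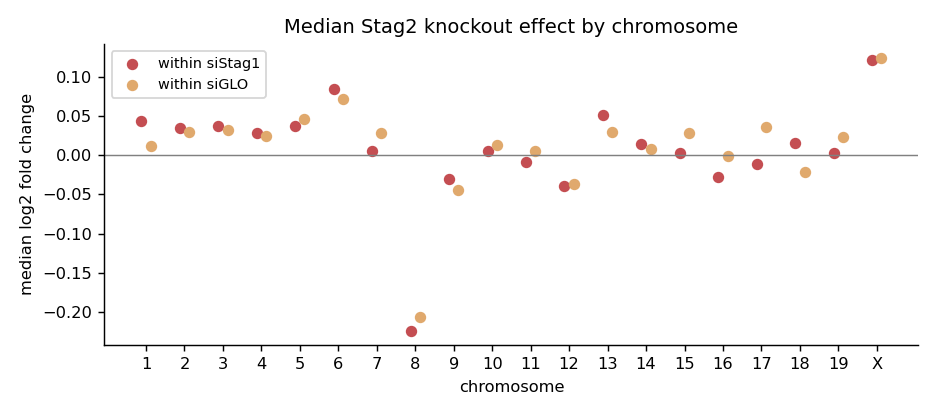
Median log2 fold change of Stag2-/- against wild-type for the tested genes of each chromosome, within siStag1 (red) and within siGLO (orange). Chromosome 8 is low at −0.22 and −0.21, X is high at 0.12 in both, and the Y chromosome, with 4 tested genes, is not drawn.

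Promoter sequence is shown for a falling and a rising signalling gene whose proximal promoters hold the core letters of the CTCF motif, since cohesin loops often end at CTCF sites. The letters AGNNGGCGC were searched on both strands of the 250 bases before each RefSeq start (GRCm38.p6), and a window with a match was present at 11.6% of the 11217 tested genes that had one. The capitals mark the match. For Fgf4 the stretch is chr7:144861313-144861381 on the plus strand, where the opposite strand holds 1 match that overlaps the one shown and 1 farther upstream that is not shown, and for Lef1 it is chr3:131110275-131110322 on the plus strand, with the match on the opposite strand.
Fgf4: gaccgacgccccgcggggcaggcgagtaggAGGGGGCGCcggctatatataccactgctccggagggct
Lef1: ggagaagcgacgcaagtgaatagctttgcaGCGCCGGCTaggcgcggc
Fgf4 fell by 1.61 and Lef1 rose by 2.70 on the log2 scale, so these letters stood in front of genes of both directions. A match describes the sequence only, and binding was not measured here.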

How the data were processed

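RNA was sequenced from v6.5 mESCs of 5 conditions with 3 replicates each, and all 15 libraries entered 1 fit. Raw read counts per gene were deposited by the authors, whose processing notes name STAR, DESeq2 and the mm10 build. The counting program, the annotation and the use of strand are not given in the sources used here, so overlapping and antisense genes cannot be told apart, and near-identical copies may share reads. For each library 1 column of raw counts was read and tied to its sample by the label. The 4 summary lines that name no gene, 19.78% to 23.43% of all counts, were left out.

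Genes were filtered with filterByExpr (at least 10 counts in libraries of the smallest group and 15 in all) and scaled by TMM. They were tested with edgeR 4.0.16 (quasi-likelihood, 1 coefficient per condition) in R 4.3.3, with Benjamini-Hochberg adjustment over all 14508 genes tested and a threshold of 0.1. A normalized count is the count divided by the TMM-scaled library size, times the mean of those sizes. The standard error is the log2 fold change divided by the square root of F. The difference of both Stag2 effects was an interaction term. Figures were drawn with matplotlib 3.10.9.

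Named genes were the genes the study names, the 10 largest rises and 10 largest falls, up to 4 called members of each of the 30 lists averaging at least 50 normalized counts (plus members a sentence needed), and up to 5 genes per direction of the difference. Some genes that this rule takes in are not reported here. Members and lists were chosen with earlier results of these data known. Genes were placed on GENCODE M21 by symbol (21777) or older symbol (1277), with 358 not found. RefSeq promoter windows matched 11217 of 14508 tested genes (77.3%), under the 80% needed for a comparison of gene sets. Motif shares among genes that rose or fell were computed but are not reported here. The labels number replicates 1 to 3 in each group, with no statement that a number marks a shared day or batch. Deviations of same-numbered libraries from their group means correlated by over 0.1 in all 3 pairs within siGLO (r of 0.131 to 0.536) and within each genotype across siRNAs but not within siStag1 (−0.0927 to 0.255). Over the 4 groups the mean r of 18 same-numbered pairs was 0.334. The fit reported has no block, and blocked values are given where they move a count of calls by over 1.5 times or change a call named in the text.

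Tested on simulated data, the fit recovered 149 of 200 genes changed 2-fold within siStag1 (74.5%), with 19 false calls among 14110 unchanged genes. For the difference of effects it recovered 109 of 200 (54.5%), with 16 false calls. The simulation changed 200 of 14307 genes from a mean shared by all groups and drew every library independently. The real siStag1 contrast called 37.5% of genes, so these shares do not give the sensitivity of the real tests. Alternatives were DESeq2 1.42.0, other scalings and filters, fits on the compared libraries alone, a replicate block, a threshold of 0.05 and leaving out each library.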

Additional observations from a re-analysis of the deposited data

Results flagged for a closer look

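The Stag2 effect within siStag1 differed from that within siGLO at 23 genes by the interaction term of edgeR (adjusted p under 0.1), and at 138 when replicate numbers entered the fit as blocks. The values here, for 22 of the 23, are differences of log2 fold changes, siStag1 minus siGLO. Among naive pluripotency genes the difference was −1.76 for Tfcp2l1, −1.49 for Esrrb, −1.50 for Tdh, −1.11 for Klf4, −1.02 for Tbx3 and −0.90 for Nr5a2. Among secreted ligands it was −2.24 for Inhbb, −2.20 for Ntn1, −1.24 for Fgf17 and −1.10 for Igf2. For Zfp57, the regulator of imprints, it was −1.26, and for Cdyl2, a chromodomain protein, −0.93. Genes of the cytoskeleton and of cell contacts gave −0.98 for Stmn2, −0.86 for Cobl, −1.15 for Kifc3, −0.95 for Epb4.9 and −1.42 for Dnahc8. The remaining negative values were −2.16 for 2210409E12Rik and −0.81 for Nmnat2, a NAD synthesis enzyme. The positive ones were 2.31 for Slc45a1, 1.29 for the receptor gene Fgfr2 and 1.11 for the focal adhesion gene Tns1. Of the genes not named for this in the report, 2210409E12Rik, Dnahc8, Epb4.9, Fgf17, Igf2 and Nmnat2 lost the call when single libraries were left out, with adjusted p of up to 0.115, 0.169, 0.172, 0.169, 0.218 and 0.275. All of these also lost it on the compared libraries alone (adjusted p between 0.117 and 0.209). Epb4.9 and Nmnat2 lost it with library size alone as well (adjusted p = 0.104 and 0.143). In 19 of the 23, the effect had the same sign in both backgrounds and was larger within siStag1, and in 4 the signs were opposite. Stag1 was higher in Stag2-/- siStag1 than in wild-type siStag1 libraries (0.65, adjusted p = 0.00227), although its own difference of effects did not pass the edgeR test (0.75, adjusted p = 0.254), and its part in these differences was not tested.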

How the results depend on the processing

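Within siStag1, 5441 genes were called, against 5575 with DESeq2, 4779 with at least 10 counts in every library, 4340 at a threshold of 0.05, and 4237 to 5324 when each library was left out. With library size alone, 54.0% of calls were higher, against 51.7%. Within siGLO, leaving out libraries gave 2524 to 3985 calls, the lowest without replicate 2 of wild-type siGLO. The difference of effects was the least stable count, with 23 calls, 102 with DESeq2, 14 on the compared libraries alone and 13 to 76 when libraries were left out, and the cause was not tested. Same-numbered libraries of the siStag1 comparison deviated together with r of −0.09 to 0.26 (3 pairs), and 3 of 6 libraries correlated best with their own number. All 3 same-numbered pairs correlated within siGLO (0.131 to 0.536), between both Stag2-/- groups (0.304 to 0.767) and between both wild-type groups (0.271 to 0.599), so the numbers may pair those libraries. With the replicate block, 6893 genes were called within siStag1, 5723 within siGLO and 138 for the difference. The fall of Stag2 and the higher Stag1 kept direction and call under every alternative run. The chromosome 8 median was −0.21 with library size alone and −0.23 to −0.22 with libraries left out, and the X median was 0.0698 over genes with a mean of at least 50, 0.136 with library size alone and 0.0908 to 0.133 with libraries left out. Signs turned, with no call on either side, for 3 genes. Dppa3 ranged from −0.171 to 0.0202 with libraries left out. Smc3 was −0.0213 with no filter, −0.00899 with at least 10 counts in every library and −0.0537 to 0.0385 with libraries left out. Sox1 was −0.12 with the replicate block and −0.79 to 0.56 with libraries left out. The counts of list members without replicate 1 of Stag2-/- siStag1 were chosen after seeing the data. Depth limits genes near the floor of 3 counts, as in the Hox clusters.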

Other observations

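Rises within siStag1 were more frequent among long genes. When the tested genes were ordered by genomic span and cut into 4 groups of equal size, 27.7% of the 3601 longest rose and 17.6% fell, and the shares that rose in the other groups were 16.4% to 17.1%. By summed exon length, 26.8% of the longest group rose and 13.0% of the shortest. The median log2 fold change of the genes of longest span was 0.08 within siStag1 and −0.01 within siGLO. The part of gene length in the results was not tested.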
